A study of Mus musculus with 12 samples.

Results

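Transcripts of respiratory complex I were followed in the mouse heart. Their members were all genes of the array whose platform symbol begins with Nduf. These were 40 of 16593 named genes, read by 53 of the 25697 probes, and a gene with several probes was followed by the one whose mean over the 12 arrays was highest. The samples were heart tissue of C57Bl/6 mice in 3 groups of 4: untreated young mice of 6 months, untreated mice aged 30 to 32 months, and spermidine-treated mice of that same age, which had received 3 mM of this compound, a natural polyamine, in their drinking water from month 4 onward. The sex of the mice is not stated in the labels, which also number the samples without stating that each is its own animal, and the p-values below measure the spread between these samples.

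Complex I is the NADH dehydrogenase of the inner mitochondrial membrane and the largest enzyme of the respiratory chain. It takes electrons from NADH in its matrix arm, passes them along iron-sulfur clusters to ubiquinone, and pumps protons through its membrane arm. Most of its subunits are encoded in the nucleus under the prefix Nduf, the remainder by mitochondrial DNA, and dedicated assembly factors build it in steps. Heart muscle is dense in mitochondria and depends on this chain for its ATP.

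The 40 members comprised 6 core subunits, 9 accessory subunits of the matrix arm, 17 accessory subunits of the membrane arm, 5 assembly factors, the acyl carrier protein Ndufab1, Ndufa4, now assigned to complex IV, and the pseudogene Ndufs5-ps. The subunits Ndufs5, Ndufa11 and Ndufb1, the Ndufa4 paralog Ndufa4l2, the assembly factors Ndufaf2, Ndufaf6 and Ndufaf8 and the 7 mitochondrially encoded subunits were not analysed here. A signal was counted as above background where it exceeded 3 SDs of the array's values below 0, mirrored about 0. By that limit 38 members were above background on all 12 arrays. Ndufs1, the core subunit that carries several of the iron-sulfur clusters, lay below it on every array (normalized intensity -6 to -1) and has no level here. The Ndufab1 probe was above it on 5 arrays, with an intensity between 8 and 24. The filter on dim probes, which asked for a signal above the array's 25th percentile on at least 4 arrays, left 39 members, all but Ndufs1. Ndufs5-ps is named for a copy of Ndufs5, and its probe may catch transcripts of that gene. Ndufs6, Ndufb4, Ndufab1 and Ndufa12 also have similar copies in the RefSeq gene table, which their probes may not separate.

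The labelled tissue matched its markers: 8 of 8 measured cardiomyocyte genes, among them Myh6 and Myl2, were above background on all arrays. Mean intensity per array ran from 259 to 313. In 3 arrays the tissue make-up stood apart. The 4 atrial markers (Sln, Myl4, Myl7 and Nppa), all above background on every array, summed to 11867 intensity units in aged replicate 1, against 49472 to 56902 on the other aged arrays, 51113 to 55946 in young and 47512 to 58066 in spermidine-treated hearts. The 4 measured airway markers, of which Sftpc was never above background, summed to 10053 in young replicate 4 and 3346 in spermidine-treated replicate 3, and to at most 18 elsewhere. The 5 measured adipocyte markers, of which Fabp4 and Retn were never above background, were also highest in these 2 arrays of their groups, at 1974 and 783, with the other arrays between 12 and 220. The 3 measured macrophage markers, all above background on every array, summed to 439 to 503 in young, 608 to 772 in aged and 501 to 763 in spermidine-treated hearts, and their part in any value below was not tested. Counts past the threshold are given below with and without the arrays that stand apart. Medians and several single genes are also given with 1 array left out.

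No complex I transcript passed the test between aged and young hearts. In limma, 0 of 39 Nduf genes passed a Benjamini-Hochberg adjusted p of 0.05, the smallest being 0.229, where 0.797% of all 20573 probes passed. At an unadjusted p below 0.05 there were 4 members (10.3%), against 14.3% of all probes. Of the 39, 16 had a higher mean in aged hearts and 23 (59.0%) a lower one, where 51.8% of all probes were lower, and the median log2 difference was -0.016, beside -0.011 over all probes and -0.021 over the 1504 probes with a mean intensity of 1000 or more. Since tissue pieces were measured whole, fewer cells of a type and less RNA per cell cannot be told apart.

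The arrays set limits on how large a difference could have been missed. For 34 of the 39 members the 95% interval of the aged against young difference lay within a 1.5-fold change in either direction. The 5 with wider intervals were Ndufaf7, Ndufb2, Ndufb5, Ndufb9 and Ndufb10. The median interval reached 0.23 log2 units to each side of the estimate. Among the 34 are the dim Ndufab1 (mean intensity 14) and Ndufaf3 (mean intensity 42). For these the 16 added to each intensity before log2 understates differences, so their intervals limit the true fold change less.

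**Figure D1:**
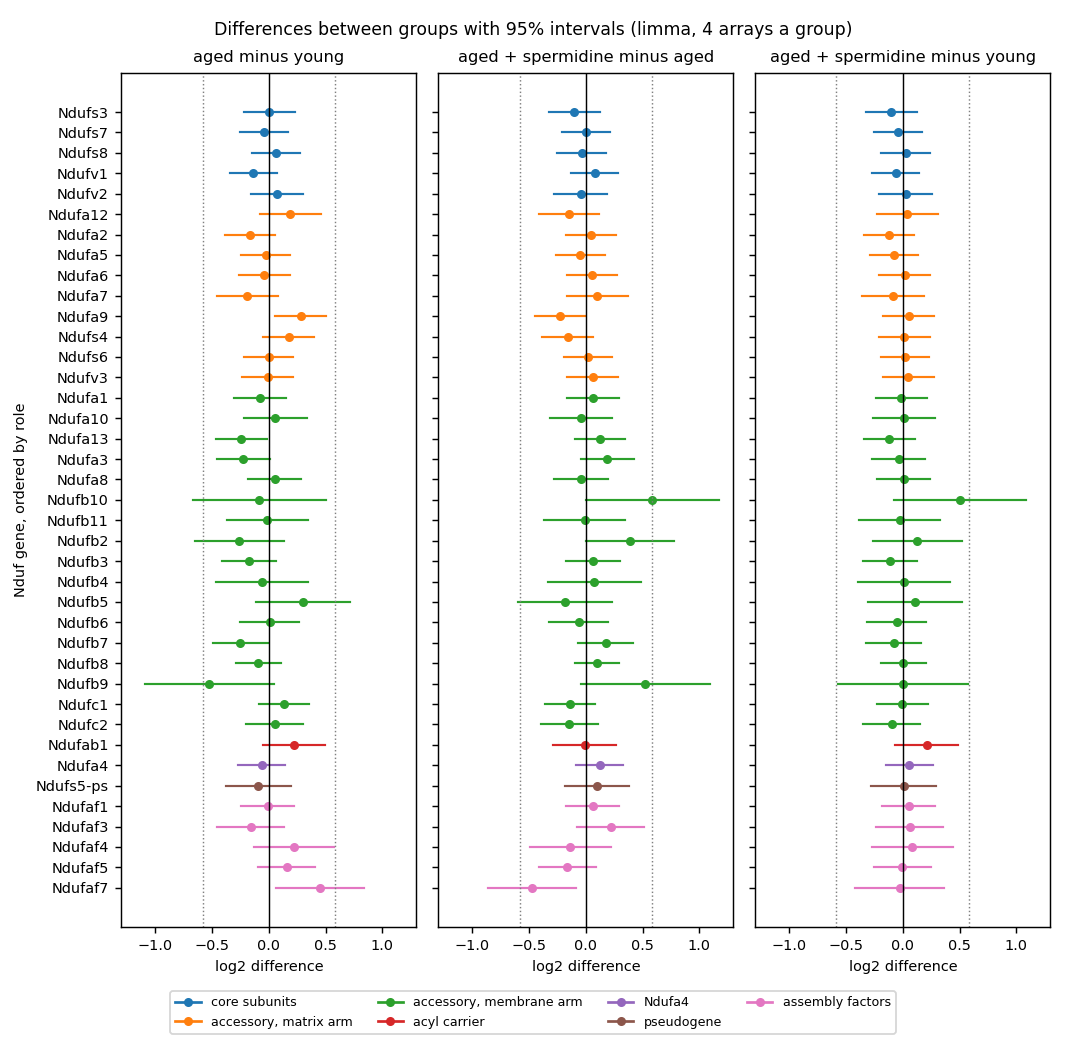
Log2 differences (points) with 95% intervals (lines) for the 39 Nduf genes that passed the filter, in the 3 comparisons, coloured by role. Solid lines mark no difference and dotted lines a 1.5-fold change; in aged against young hearts 34 of 39 intervals lie between the dotted lines, and Ndufb9 and Ndufb10 have the widest.

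Promoter sequence is shown for the pair of members with the smallest p in both comparisons with untreated aged hearts, Ndufa9 and Ndufaf7. RefSeq windows of GRCm38.p6, from 250 bases before to 50 after a transcript start given with each window, were at hand for 36 of the 40 members, in 38 windows. Of the genes printed here, the window start of Ndufaf7, Ndufa3 and Ndufs7 differs from the start of the gene in the RefSeq gene table. Both strands were searched for 4 motif cores, GCATGCG (NRF1), CCGGAAG (GABPA), AAGGTCA (ERR) and AAGATGG (YY1), and no member window held more than 1 of these motifs. The 250 bases before the start of Ndufa9 (chr6:126849145-126849394, minus strand) and of Ndufaf7 (chr17:78936885-78937134, plus strand) hold none of the 4 and are given in lower case:
Ndufa9: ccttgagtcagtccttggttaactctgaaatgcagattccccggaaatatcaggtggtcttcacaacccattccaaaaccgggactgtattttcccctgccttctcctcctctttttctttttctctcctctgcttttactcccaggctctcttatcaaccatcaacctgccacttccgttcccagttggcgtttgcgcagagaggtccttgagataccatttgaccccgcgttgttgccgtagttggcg
Ndufaf7: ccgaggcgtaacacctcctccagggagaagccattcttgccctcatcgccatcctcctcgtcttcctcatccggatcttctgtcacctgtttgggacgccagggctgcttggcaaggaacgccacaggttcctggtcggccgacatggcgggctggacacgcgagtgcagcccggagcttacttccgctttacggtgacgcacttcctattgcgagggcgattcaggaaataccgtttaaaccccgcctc

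The YY1 letters lay in 7 of the 38 member windows (18.4%) and in 6.34% of all 32851 windows, and the NRF1 letters in 4 (10.5%) and 3.58%. GABPA letters were in 5 (13.2%), against 8.86% of all windows, and ERR letters in 2 (5.26%), against 4.72%. Stretches of 30 bases around the 7 YY1 matches are shown because all lie at a like place, with the motif in capitals beginning 22 to 38 bases after the window's transcript start. They lie at chr7:3617385-3617414 (plus strand, Ndufa3), chr6:126849096-126849125 (minus, Ndufa9), chr19:44555393-44555422 (minus, Ndufb8), chr3:51408914-51408943 (minus, Ndufc1), chr13:114388045-114388074 (minus, Ndufs4), chr13:73328433-73328462 (minus, Ndufs6) and chr10:80249463-80249492 (plus, Ndufs7):
Ndufa3: cgccaagaacAAGATGGccgggagtaagta
Ndufa9: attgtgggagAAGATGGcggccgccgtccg
Ndufb8: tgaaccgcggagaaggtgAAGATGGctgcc
Ndufc1: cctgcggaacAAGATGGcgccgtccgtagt
Ndufs4: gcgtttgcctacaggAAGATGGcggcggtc
Ndufs6: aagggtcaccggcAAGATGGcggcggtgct
Ndufs7: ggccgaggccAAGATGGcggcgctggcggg
These 7 genes differed by -0.22, 0.28, -0.093, 0.13, 0.17, -0.0035 and -0.045 log2 units in aged against young hearts, in the order shown. A match of letters is a description and not a site of binding.

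Among the core subunits, which carry the flavin, the iron-sulfur clusters and the quinone site, the 5 measured genes lay between -0.14 and 0.071 log2 units in aged against young hearts. Ndufv1, which binds the flavin and NADH, had intensities of 11776, 12287, 11924 and 11603 in young and 11709, 10836, 10204 and 10511 in aged hearts. The ranges touched at aged replicate 1, and the log2 difference was -0.14 (SE 0.10, adjusted p = 0.542). Ndufv2, its partner in the electron input module, differed by 0.071. Of the subunits around the quinone site, Ndufs3 differed by 0.0030, Ndufs7, which holds the last cluster before ubiquinone, by -0.045, and Ndufs8 by 0.063.

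The accessory subunits of the matrix arm held the member with the smallest p. Ndufa9, which lies at the joint between the arms and binds NADPH, had intensities of 11011, 10062, 10908 and 10836 in young hearts. In aged hearts they were 14203, 13804, 12752 and 11337, so that every aged array lay above every young one. Expressed on the log2 scale, the mean was 13.39 ± 0.060 in young and 13.67 ± 0.15 in aged hearts (SD, n = 4 each), a difference of 0.28 (SE 0.10, 95% interval 0.056 to 0.50, adjusted p = 0.229).

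Complete separation of this kind was seen upward for 2 members (5.13%), Ndufa9 and Ndufaf5, where 4.06% of all probes showed it, and downward for 0 members, where 4.01% did. Across the 12 fits that left out 1 array the log2 difference of Ndufa9 lay between 0.23 and 0.34. Ndufs4 and Ndufa12, which join the electron input module late in assembly, differed by 0.17 and 0.19, and without aged replicate 1, low in atrial markers, Ndufs4 differed by 0.11. Ndufa2 differed by -0.17, Ndufa7 by -0.19, Ndufa6 by -0.040, Ndufa5 by -0.029, Ndufv3 by -0.012 and the zinc-binding Ndufs6 by -0.0035.

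Ndufs4 was read by 4 probes that did not move alike. The brightest differed by 0.17 in aged against young hearts and the others by 0.045, -0.16 and -0.093. The mean of all 4 probes differed by -0.0093.

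Among the 17 accessory subunits of the membrane arm 11 had a lower mean in aged hearts, with a median log2 difference of -0.078. The lowest p belonged to Ndufa13, also known as a regulator of cell death. It had intensities of 18040, 17631, 16616 and 18167 in young and 15110, 13647, 13957 and 17032 in aged hearts. Aged replicate 4 lay within the young range and the other aged arrays below it. The log2 difference was -0.24 (SE 0.10, adjusted p = 0.307).

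Ndufb7, a subunit on the intermembrane side, had intensities of 1738, 1669, 1751 and 1850 in young and 1727, 1346, 1313 and 1516 in aged hearts. Here aged replicate 1 was within the young range (log2 difference -0.25, adjusted p = 0.324). Ndufa3, a small membrane subunit, differed by -0.22 (adjusted p = 0.369). The remaining members of this arm lay between -0.52 for Ndufb9 and 0.30 for Ndufb5.

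Ndufb9, Ndufb10 and Ndufb2, all of the membrane arm, were among the members that varied most from array to array. Ndufb9, which docks an acyl carrier protein, had intensities of 959, 710, 1000 and 1071 in young hearts and of 774, 448, 424 and 1118 in aged hearts. Aged replicates 2 and 3 were below all young arrays, while replicate 4 was above them all. The log2 difference of -0.52 had a 95% interval from -1.09 to 0.047 (adjusted p = 0.389).

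Ndufb10 stood at 661, 543, 551 and 640 in young hearts and at 790, 694, 305 and 593 in aged hearts. Its lowest value over the 12 arrays was in aged replicate 3 and its highest, 1351, in spermidine-treated replicate 2. Ndufb2 stood at 404, 319, 380 and 461 in young hearts and 392, 289, 225 and 413 in aged hearts, again lowest in aged replicate 3. Leaving out aged replicate 3 took the aged against young difference of Ndufb2 from -0.26 to -0.10 (-0.38 without aged replicate 4). It took that of Ndufb9 from -0.52 to -0.33 (-0.79 without aged replicate 4) and that of Ndufb10 from -0.083 to 0.20 (-0.24 without aged replicate 1).

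**Figure D2:**
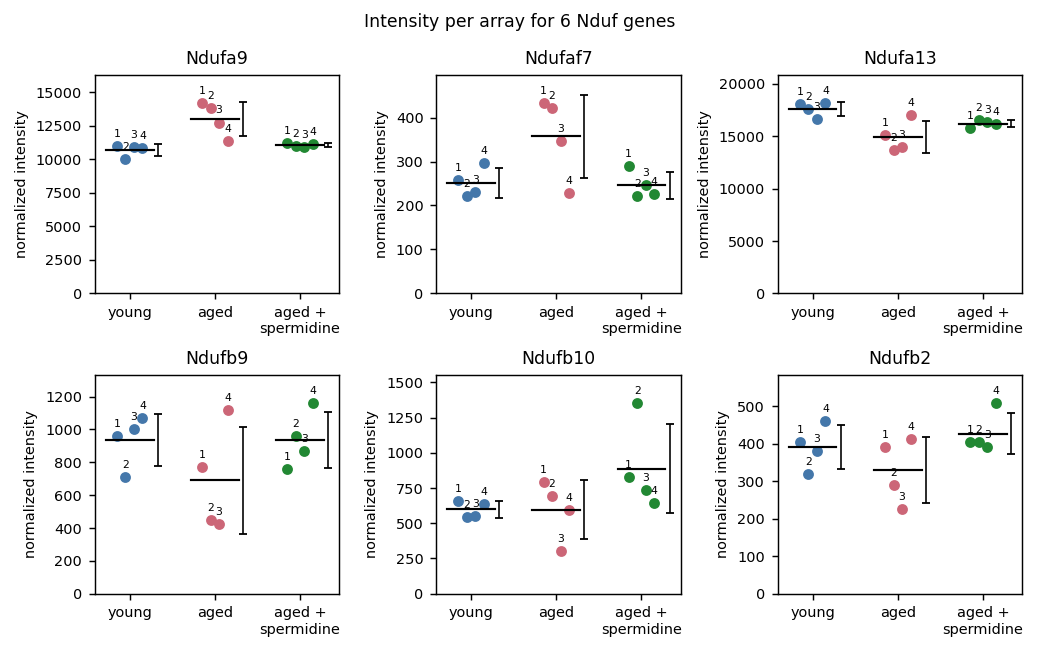
Normalized intensity (linear, axis from 0) on each array for 6 Nduf genes, with the replicate number above each point, the group mean as a horizontal line and its SD as a bar to the right (n = 4). Ndufa9 is higher on all 4 aged arrays than on the young ones, while aged replicate 4 of Ndufaf7 lies among the young arrays and the aged arrays of Ndufb9 run from 424 to 1118.

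The assembly factors included the member with the largest aged increase in mean, which did not pass the test. Ndufaf7, a methyltransferase of complex I assembly, had intensities of 258, 222, 230 and 296 in young and 433, 422, 347 and 228 in aged hearts. Aged replicates 1, 2 and 3 lay above all young arrays and replicate 4 lay among them. The log2 difference was 0.45 (SE 0.18, 95% interval 0.058 to 0.84, adjusted p = 0.277).

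Without aged replicate 4 it was 0.64 and passed the threshold (adjusted p = 0.0348), the sole Nduf gene to do so in any fit that left out 1 array. In the other fits with 1 array left out its log2 difference was as low as 0.35. The other 2 probes of Ndufaf7 were above background on no array. Ndufaf5, a hydroxylase that acts on Ndufs7, had intensities of 401, 398, 404 and 385 in young and 528, 425, 424 and 411 in aged hearts, a log2 difference of 0.16 (adjusted p = 0.571). Without aged replicate 1 it was 0.077, and a dimmer second probe of Ndufaf5 differed by -0.042. The early assembly factors Ndufaf4 and Ndufaf3 differed by 0.22 and -0.16, the latter at -0.056 with aged replicate 3 left out and at -0.28 with aged replicate 4 left out, and Ndufaf1, which works on the membrane arm, by -0.0099.

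Spermidine-treated aged hearts were then set against untreated aged hearts. Here too 0 of 39 Nduf genes passed in limma (smallest adjusted p = 0.474), where 0.00486% of all probes did. Unadjusted, 3 members (7.69%) had a p below 0.05, against 9.45% of all probes. With treatment 21 members had a higher mean and 18 (46.2%) a lower one, where 49.1% of all probes were lower. The median log2 difference was 0.020, beside 0.0047 over all probes, and 34 of the 39 intervals lay within 1.5-fold. This comparison uses the same 4 aged arrays as the one above, so an aged array that stands apart moves both, in opposite directions.

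For Ndufaf7 the treated arrays read 289, 222, 247 and 227, a log2 difference of -0.48 from the aged arrays (SE 0.18, adjusted p = 0.474). They overlapped the aged range only at its low end, where aged replicate 4 stood. With that array left out the difference of Ndufaf7 was -0.67 (adjusted p = 0.0598), and with aged replicate 1 left out it was -0.37. Ndufa9 read 11206, 11011, 10947 and 11151 with treatment, below all 4 untreated aged arrays, a log2 difference of -0.23 (SE 0.10, adjusted p = 0.520). It was the 1 member (2.56%) with complete separation downward, where 1.53% of all probes showed it. None separated upward, where 1.75% of all probes did.

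On the higher side Ndufb10 read 825, 1351, 733 and 643 with treatment (log2 difference 0.59, SE 0.27, 95% interval 0.0039 to 1.17, adjusted p = 0.524). Its groups overlapped, and the difference was 0.30 without aged replicate 3, 0.37 without spermidine-treated replicate 2 and 0.75 without aged replicate 1. Ndufb2 read 405, 405, 392 and 508, and Ndufb9 read 760, 960, 866 and 1159. Their log2 differences were 0.39 (adjusted p = 0.529) and 0.53 (adjusted p = 0.550), with 3 of the 4 treated arrays inside the aged range and replicate 4 above it for both genes. Without aged replicate 3 they were 0.23 and 0.33, and without aged replicate 4 they were 0.50 and 0.79.

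The 5 measured core subunits lay between -0.10 for Ndufs3 (-0.058 without spermidine-treated replicate 1) and 0.077 for Ndufv1 with spermidine. Outside the genes named, the accessory subunits of the matrix arm lay between -0.16 for Ndufs4 and 0.10 for Ndufa7. Without aged replicate 1 Ndufs4 differed by -0.10, and under settings other than leaving out 1 array it lay between -0.18 and -0.0028. The brightest probe of Ndufa5 differed by -0.049 and its dimmer second probe by 0.35. Ndufa13 differed by 0.12 (0.081 without aged replicate 2, 0.19 without aged replicate 4), Ndufb7 by 0.17 (0.26 without the 3 arrays of unlike make-up), Ndufa3 by 0.19 and Ndufa4 by 0.12.

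Treated aged hearts were also compared with young hearts, to see where the treated animals stood against the young level. Of the 39 members 0 passed in limma (smallest adjusted p = 0.768), where 0.16% of all probes did, and 0 had an unadjusted p below 0.05, where 7.49% of all probes had one. The median log2 difference was 0.0066, beside -0.012 over all probes, and 38 of 39 intervals lay within 1.5-fold, all but that of Ndufb10 (0.50, 95% interval -0.080 to 1.09). Without spermidine-treated replicate 2 this difference was 0.28. Ndufaf7 differed by -0.027, Ndufb9 by 0.00090 and Ndufa9 by 0.050.

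Ndufa13 separated completely downward, with 15773, 16521, 16395 and 16144 in treated hearts (log2 difference -0.12, adjusted p = 0.914), as did 2.17% of all probes. Ndufab1 separated upward (0.21), as did 3.33%, at intensities close to the background limit. These 2 members are 2.56% each of the 39. A p that misses the threshold does not show that 2 groups are alike, and the intervals above state what differences the arrays allow.

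**Figure D3:**
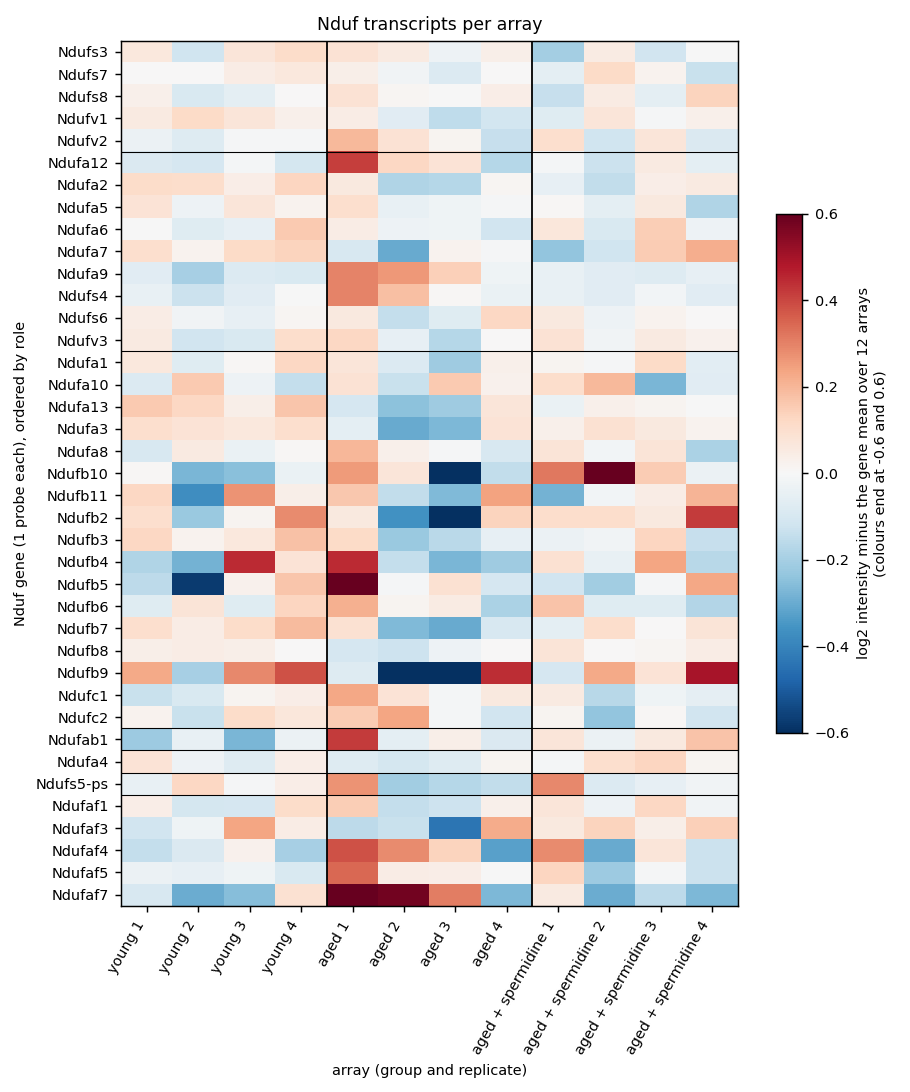
Log2 intensity minus the gene's mean over the 12 arrays for the 39 Nduf genes (rows, ordered by role, separated by lines) on each array (columns). The column of aged replicate 1 is mostly above the mean, those of aged replicates 2 and 3 hold the lowest values of Ndufb9, and Ndufaf7 is high on aged replicates 1 to 3.

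Within the groups the members were spread little. The residual SD of the model had a median of 0.11 log2 units over the 39 members and 0.24 over all probes. Brighter probes vary less, and 29 of the members have a mean intensity of 1000 or more. Their median residual SD was 0.098, beside 0.14 over all 1504 such probes. The smallest was that of Ndufb8, at 0.041, and the largest those of Ndufb10 and Ndufb9, at 0.44 and 0.43. Ndufs6 ranked between 10 and 31 among all probes of an array by brightness and reached 80.4% of an array's highest intensity. Ndufa4, Ndufa13 and Ndufb8 reached 76.4%, 74.3% and 70.1%. In such a range scanners can compress differences.

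The mean deviation of the 39 members from their own 12-array means was between -0.073 and 0.060 in young hearts and between -0.0083 and 0.031 in spermidine-treated hearts. In aged hearts it was 0.16, -0.059, -0.13 and -0.023 on replicates 1 to 4, so that the aged arrays lay on both sides of the others. The membrane arm subunits ran from 0.14 in aged replicate 1 to -0.24 in aged replicate 3. Aged replicate 1 held the highest value of 15 members, and aged replicates 2 and 3 the lowest of 10 and 8.

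Aged replicate 1 is the array low in atrial transcripts, with an atrial marker score of -2.54. The part of tissue make-up in its Nduf values was not tested. Without this array the median log2 difference of the members was -0.062 in aged against young hearts and 0.080 in treated against aged hearts, and 0 members passed in either. Young replicate 4 and spermidine-treated replicate 3, which hold airway transcripts, had mean deviations of 0.060 and 0.031. Leaving out these 2, or all 3 arrays, also gave 0 members past the threshold in every comparison.

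**Figure D4:**
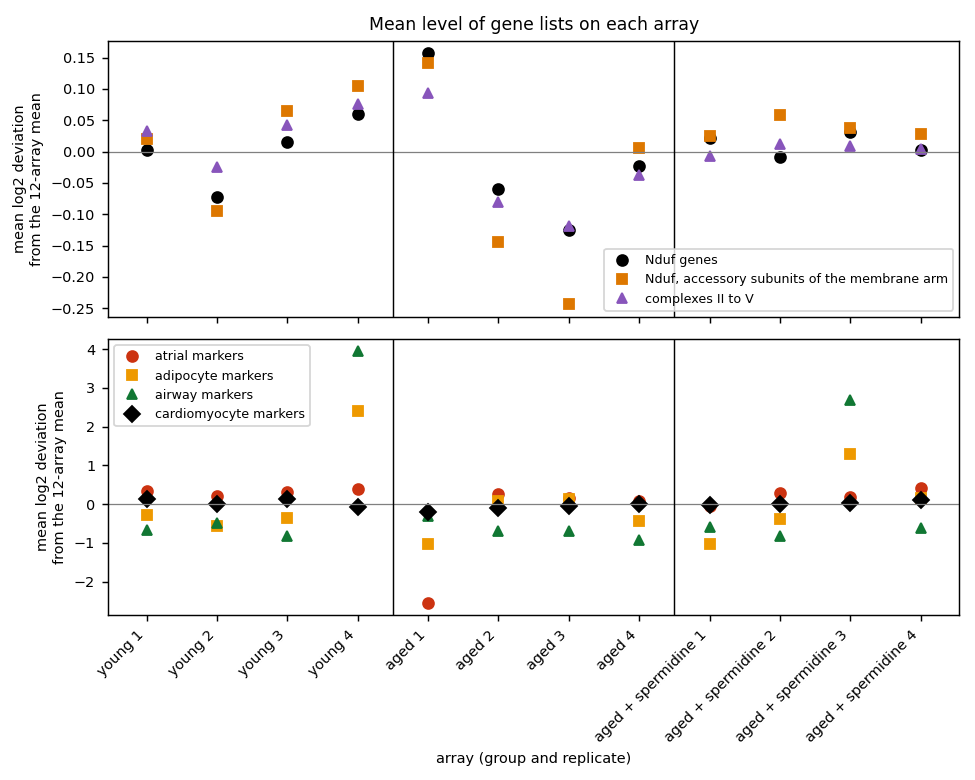
Mean log2 deviation from the 12-array mean, per array, of the 39 Nduf genes, their 17 membrane arm subunits and 44 genes of complexes II to V (upper panel), and of atrial, adipocyte, airway and cardiomyocyte markers (lower panel, wider scale). Aged replicate 1 is highest for the Nduf genes (0.16) and lowest for the atrial markers (-2.54).

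Nuclear subunits of complexes II to V showed a like order of the aged arrays. Over the 44 of 46 genes that were kept, the mean deviation was 0.094, -0.081, -0.12 and -0.038 on aged replicates 1 to 4. On spermidine-treated replicates 1 to 4 it was -0.0069, 0.011, 0.0088 and 0.0043, in another order than for the Nduf genes. The median log2 difference of the 44 genes was -0.059 in aged against young hearts. There 31 (70.5%) were lower and 13 higher, where 51.8% of all probes were lower. In limma 1 of the 44 passed the threshold, where 0.797% of all probes did. This was Atp5mc2, a membrane ring subunit of the ATP synthase (-0.60, adjusted p = 0.0317). With spermidine the median was 0.031 and 0 passed. Whether complex I differs from these complexes was not tested.

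The other genes that serve complex I gave few differences. Of 15 kept assembly factors with other names 0 passed in any comparison, and the median difference in aged hearts was -0.050. Tmem126b, which works with Ndufaf1 on the membrane arm, differed by 0.47 in aged against young hearts (adjusted p = 0.117) and by -0.36 in treated against aged hearts (adjusted p = 0.464). Lyrm2 differed by 0.33 and -0.37 in the same comparisons.

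Of 12 kept genes for iron-sulfur clusters and flavins, 0 passed, and all lay between -0.11 and 0.19 in aged against young hearts. Among 14 kept genes for ubiquinone and its other electron donors 0 passed. Coq9, a lipid-binding protein of ubiquinone synthesis, differed by 0.48 (adjusted p = 0.147) with age, and Coq8a by -0.54 (adjusted p = 0.457) with spermidine. Among 14 kept regulators of respiratory genes 0 passed as well. The largest differences by p were Ppara in aged hearts (0.64, adjusted p = 0.218; above background on 4 of the 12 arrays) and Nrf1 with spermidine (0.30, adjusted p = 0.457).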

How the data were processed

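RNA was labelled with the Illumina TotalPrep kit after Trizol and RNeasy extraction, per the labels' protocols. The deposited non-normalized table holds linear intensity in whole numbers, and 24.1% of its values lie below 0, so a background had already been subtracted; how is not stated per the labels. A second deposited table holds intensity values normalized by the submitters (median 21 on every array) and served as an alternative. The values were quantile-normalized, 16 was added and log2 taken, which understates differences of dim probes and hides a shift common to all transcripts. Of 25697 probes 20573 passed the filter. One limma model (limma 3.58.1, R 4.3.3) of the 3 group means over 12 arrays, with 9 residual degrees of freedom, gave two-sided tests adjusted over all kept probes, and was tested on simulated data. The number of arrays limits the precision. Genes were named from the platform annotation and a RefSeq table. Neither slides nor scan dates were known.

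The members and lists were chosen with earlier results of these data known. Members named with full statistics were those of a fixed panel, the 4 smallest p in each direction per comparison, and the 3 highest and lowest means; the rest are given by value. Genes named from other lists were taken from the members past the threshold or with the 2 smallest p, and not all of these are named. Alternatives were other normalizations, offsets of 4 and 64, no filter, the mean of all probes, fits of 2 groups, a variance trend, array weights, a replicate block and arrays left out.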

Additional observations from a re-analysis of the deposited data

Results flagged for a closer look

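Of 69 sets of 4 arrays (23 named members in 3 groups), 2 held an array that lay apart from the other 3 by Dixon's 95% criterion, which chance gives in about 1 in 20 sets. Ndufaf5 stood at 9.09 log2 units in aged replicate 1, against 8.74 to 8.78 on the other aged arrays. Ndufb2 stood at 9.03 in spermidine-treated replicate 4, against 8.67 to 8.72 on the other treated arrays.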

How the results depend on the processing

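The count of Nduf genes past the threshold was 0 in every comparison under the 12 settings tried other than leaving out 1 array. Among the 12 fits with 1 array left out it ranged from 0 to 1 in aged against young hearts, the 1 being Ndufaf7 without aged replicate 4, and was 0 in both spermidine comparisons. Medians with 1 array left out ran from -0.062 to 0.016 in aged against young hearts, from -0.0018 to 0.080 in treated against aged and from -0.013 to 0.022 in treated against young. Under the other settings they ran from -0.045 to 0.0092, from 0.0015 to 0.060 and from -0.0083 to 0.042, in the same order. The count at an unadjusted p below 0.05 in aged against young hearts was 9 with an offset of 64, with a variance trend or without aged replicate 4, and 1 without aged replicate 2 or without the 3 arrays of unlike make-up. In treated against aged hearts it ran from 0 without spermidine-treated replicate 2 to 8 with a variance trend. The cause was not tested. Deviations of arrays with the same replicate number in the titles correlated between -0.18 and 0.11. Differently numbered arrays were not compared, so these values cannot decide whether the numbers pair the arrays. With the replicate number as a block the counts past the threshold stayed at 0, and 3, 4 and 0 members had an unadjusted p below 0.05 in the order of the comparisons above. No called value changed sign, since none was called. Of 552 refitted values of the 23 named members in each comparison, 23, 15 and 28 changed sign. In aged against young hearts these included Ndufs6, from -0.0035 to 0.094 with scaling to the 75th percentile. Larger values also did so: Ndufb10 went from -0.083 to 0.20 without aged replicate 3. Ndufs4 went from 0.17 to -0.0093 with the mean of all probes.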
